A study of Homo sapiens with 12 samples.

Results

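The miRNA profile of HEK293T cells that received control siRNA is described here from the 3 control siRNA miRNA-seq libraries, 3 of the 12 samples of the series. They were selected by their labels, with earlier results of these data known, and no knockdown sample enters any value below. HEK293T is a line derived from human embryonic kidney cells that carries the SV40 large T antigen. The labels give HEK293T as the line, whereas the growth protocol speaks of HEK293. All 3 libraries share the treatment: a non-targeting control RNA at 50 nM was delivered by lipid transfection, the transfection was repeated after 48 hours, and the cells were harvested 72 hours later. The cells are therefore transfected cells and not untreated ones. Nothing in the labels ties the replicates to separate cultures, so the SD over libraries may be technical.

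A miRNA is cut from a hairpin precursor first by Drosha in the nucleus and then by Dicer in the cytoplasm, which leaves a short duplex of a 5p and a 3p arm. One arm is usually kept by an Argonaute protein, and its seed, bases 2 to 8 from the 5′ end, pairs with target mRNAs. miRNAs with the same seed form a family with shared targets, and hairpins that lie close together on a chromosome are often cut from 1 transcript. HEK293T cells are widely used to study this pathway because they are easily transfected.

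Levels are given as CPM, the raw count of a name over the total count of its library times 1e+06. Totals were 808274 counts in library 1, 765527 in library 2 and 723224 in library 3. A name that has no count in a library could hold up to 3 counts, which is 3.71 to 4.15 CPM, and this limit covers counting error only. CPM is a share of the counted reads. How evenly the library preparation captured different sequences was not tested, so levels of different names compare reads and not molecules. Mature miRNAs are of nearly equal length, and no scaling by length was applied.

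The mature sequences of the leading names, from RefSeq on GRCh38.p14, are shown with the seed in capitals, because the shares below turn on which seed each name carries. Of the 20 most abundant names, 18 matched a sequence in that table. The names not matched were miR-10b-5p and miR-3195.
miR-10a-5p: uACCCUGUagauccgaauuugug
miR-92a-3p: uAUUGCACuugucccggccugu
miR-25-3p: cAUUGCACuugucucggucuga
miR-92b-3p: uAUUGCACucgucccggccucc
miR-718: cUUCCGCCccgccgggcgucg
miR-4465: cUCAAGUAgucugaccagggga
miR-26a-5p: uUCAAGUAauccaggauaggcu
miR-191-5p: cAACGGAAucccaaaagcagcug
miR-148a-3p: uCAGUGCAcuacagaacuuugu
miR-182-5p: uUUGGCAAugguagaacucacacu
miR-16-5p: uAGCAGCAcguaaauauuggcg
miR-99b-5p: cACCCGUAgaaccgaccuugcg
let-7a-5p: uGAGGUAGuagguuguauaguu
miR-6126: gUGAAGGCccggcggaga
miR-4634: cGGCGCGAccggcccgggg
The sequences of miR-92a-3p, miR-25-3p and miR-92b-3p carry 1 seed, and those of miR-4465 and miR-26a-5p carry another. miR-718, miR-6126 and miR-4634 are rich in G and C.

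The profile was led by miR-10a-5p, which lies on chromosome 17 within the HOXB3 gene region and belongs to a miRNA family embedded in the HOX clusters. It stood at 242795, 254699 and 245886 CPM, a mean of 247794 ± 6177 CPM (SD, n = 3) or 24.8 ± 0.618% of all miRNA counts. Its paralog miR-10b-5p stood at 128812, 132234 and 139236 CPM, 133427 ± 5314 CPM. The libraries of both names did not overlap, and miR-10a-5p was 1.86 ± 0.0832 times as high as miR-10b-5p. Together the 2 names held 38.1 ± 0.838% of counts. miR-10b-5p had no matched sequence, so its likeness to miR-10a-5p was not measured. How reads that match several names were counted is not given, so the split of reads between these 2 paralogs is uncertain.

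miR-92a-3p, a product of the miR-17/92 cluster that is best known from proliferating cells, was the third name at 66840, 68776 and 65465 CPM. Its mean was 67027 ± 1663 CPM, and miR-10b-5p was 1.99 ± 0.117 times as high. The first 3 names were in the same order in each of the 3 libraries.

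The next names lay close together. miR-718 stood at 28989, 27670 and 27978 CPM and miR-4465 at 29715, 28070 and 26374 CPM. Their libraries overlapped, so no order is given between them. miR-191-5p followed at 25165, 25415 and 25154 CPM, and its SD of 148 CPM was the smallest among the first 10 names. miR-148a-3p followed at 22140, 21688 and 23730 CPM and did not overlap its neighbours on either side.

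miR-182-5p, known from sensory organs, stood at 18448, 15698 and 19351 CPM. It overlapped miR-16-5p at 17790, 18076 and 17527 CPM. It also overlapped miR-99b-5p at 17735, 16416 and 16949 CPM. miR-16-5p is known for limiting cell cycle genes, and 2 hairpin genes, on chromosomes 13 and 3, give the same mature sequence.

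The second 10 names ran from miR-26a-5p at 13312 ± 141.1 CPM to miR-4634 at 7407 ± 118 CPM. miR-22-3p stood at 11070 ± 114 CPM, miR-3195 at 10648 ± 435 CPM and miR-27b-3p at 10370 ± 146 CPM. miR-25-3p stood at 9618 ± 202 CPM, miR-92b-3p at 8163 ± 207.98 CPM and miR-6126 at 7901 ± 359 CPM. miR-378a-3p stood at 7666 ± 406 CPM and miR-181a-5p at 7409 ± 606 CPM (each SD, n = 3). Of the 20 names, 10 did not overlap the name below them in any library, and 19 were among the first 20 of each library. Of the 20, 4 carry a number over 1000 (miR-4465, miR-3195, miR-6126 and miR-4634), meaning that they were registered late.

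**Figure D1:**
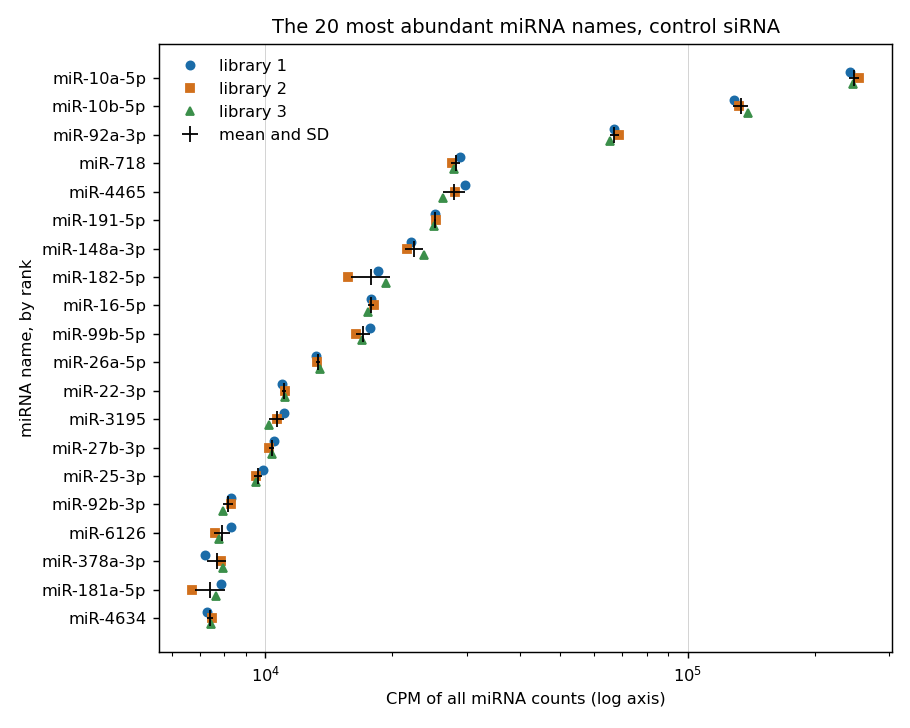
CPM of the 20 most abundant miRNA names (vertical axis, by rank) in the 3 control siRNA libraries on a log axis, with a bar for the mean and SD. miR-10a-5p, miR-10b-5p and miR-92a-3p stand apart from all others in each library, while neighbours such as miR-718 and miR-4465 overlap.

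Counts were concentrated in few names. The first 10 names held 60.5 ± 0.567% of counts, the first 20 held 69.9 ± 0.452% and the first 100 held 88.1 ± 0.223%. From 5 to 6 names were enough for 50% of a library, and a mean of 123.7 ± 2.08 names for 90%. The remaining names shared little: 1016 names lay from 1 to under 10 CPM and together held 0.445% of counts.

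**Figure D2:**
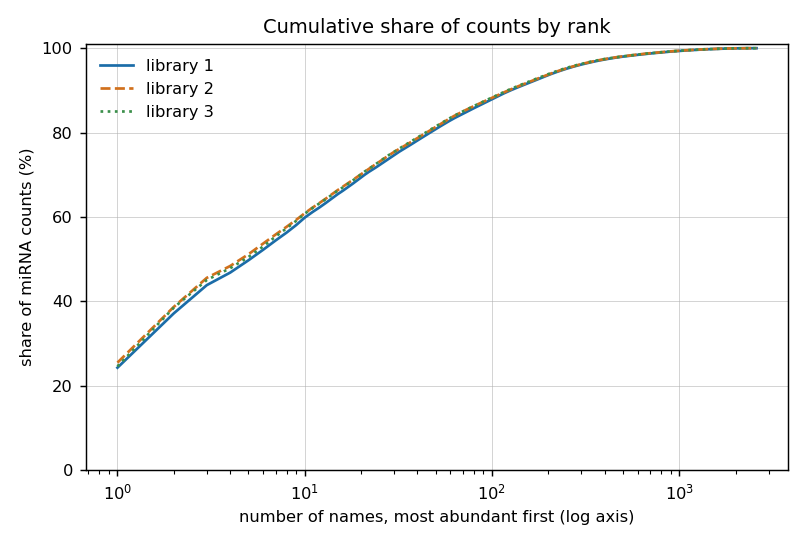
Cumulative share of miRNA counts (percent) against the number of names, most abundant first, on a log axis, with 1 line per library. The 3 lines nearly coincide, passing 50% at 5 to 6 names and 90% at a mean of 123.7 names.

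The spread between libraries set how finely levels could be told apart. The coefficient of variation (CV, SD over mean) had a median of 2.49% for the 14 names of at least 10000 CPM, where counting alone would give 0.810%. It was 4.55% for the 78 names from 1000 CPM, with 2.40% from counting, and 7.30% for the 282 names from 100 CPM, with 6.92% from counting. At 10 to under 100 CPM the median CV was 19.5%, no larger than the 23.5% from counting. Above 1000 CPM the spread was larger than counting error. A median CV from 3 libraries tends to be smaller than the counting value at the same spread, so the 2 are not like for like. Under 1000 CPM, spread beyond counting error was not tested.

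Of the 100 most abundant names, miR-5701 varied most, with 1507 CPM in library 1 against 694 and 795 CPM in the others, a CV of 44.4%. The following 4 were miR-4792 with a CV of 16.1%, miR-6729-5p with 15.3%, miR-6735-5p with 14.4% and miR-7977 with 13.0%. miR-4792 was lowest in library 1 and the other 3 were highest there. All 4 lay between 916 and 1516 CPM in every library.

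Seed families sum the names that can pair with the same targets. A mature sequence was found for 2281 of 2588 names, which held 81.8 ± 0.523% of counts, and families could be formed only from these. They fell into 1854 families, 1568 of them with a single name. The first 10 families held 51.7 ± 0.399% of all counts. Of these, 4 were single names in the table, namely miR-10a-5p, miR-718, miR-191-5p and miR-182-5p, whose shares are those above. miR-10b-5p, known as a member of the miR-10a-5p family, was not matched and is in neither share. miR-10a-5p and miR-10b-5p together held 38.1 ± 0.838% of counts, so the share of this family, and with it that of the first 10 families, is understated here.

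The second family was that of miR-92a-3p, miR-25-3p and miR-92b-3p, whose seeds are shown above, with 8.50%, 8.66% and 8.29% of counts in the 3 libraries (8.49 ± 0.184%). miR-92a-3p made up 79.0% of it. Its sequence has the same base as miR-25-3p at 18 of 22 positions and as miR-92b-3p at 19 of 22. The other members, miR-32-5p, miR-367-3p and miR-363-3p, were under 100 CPM. The 3 abundant members come from different loci, on chromosomes 13 and X, 7 and 1.

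The third family had 4.32%, 4.16% and 4.01% of counts (4.17 ± 0.154%). miR-4465 made up 67.4% of it and miR-26a-5p most of the rest. miR-26a-5p is known for repressing EZH2, a methyltransferase of histone H3. Beyond the seed the 2 sequences diverge: they carry the same base at 11 of 22 positions. miR-26b-5p added 285 ± 9.39 CPM.

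Most of the other families were also led by 1 name. The miR-148a-3p family, with miR-148b-3p and miR-152-3p, held 2.29 ± 0.108% of counts, of which miR-148a-3p made up 98.4%. In the miR-99b-5p family, with miR-99a-5p and miR-100-5p, miR-99b-5p made up 98.5% of 1.73 ± 0.0680%, while miR-100-5p stood at 8.29 ± 1.61 CPM. In the miR-16-5p family of 7 names, which held 1.98 ± 0.0197%, miR-16-5p made up 89.7%. miR-15b-5p followed at 999 ± 26.0 CPM and miR-15a-5p at 768 ± 60.2 CPM.

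The let-7 family, whose members mark differentiated cells and repress growth genes such as LIN28, was the least dominated by its leading name among the first 10. It held 1.16 ± 0.0286% of counts over 11 names, 7 of them over 100 CPM. let-7a-5p stood at 5236, 5049 and 5243 CPM and made up 44.7%. let-7f-5p stood at 3222, 3143 and 3330 CPM, below let-7a-5p in each library. let-7g-5p stood at 1226 ± 47.5 CPM, let-7e-5p at 922 ± 35.9 CPM and let-7c-5p at 483 ± 34.6 CPM, while let-7b-5p stood at 41.6 ± 8.77 CPM. let-7a-5p has the same base as let-7f-5p and as let-7c-5p at 21 of 22 positions, so the split of reads between these names is uncertain.

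For several names the counts may include reads of another name, because their sequences are identical or reverse complements. The sequence pairs below are shown because 1 member is the reverse complement of the other over its full length.
miR-103a-3p: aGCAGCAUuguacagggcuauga
miR-103b: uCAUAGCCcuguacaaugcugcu
miR-423-5p: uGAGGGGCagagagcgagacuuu
miR-3184-3p: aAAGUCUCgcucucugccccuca
miR-103a-3p had 2501, 2371 and 2216 counts and miR-103b had 2521, 2396 and 2274. miR-423-5p had 374, 448 and 397 counts and miR-3184-3p had 395, 396 and 369. The values within each pair were close in every library. Another such pair was unequal: miR-3529-3p had 129, 112 and 85 counts and miR-7-5p, a miRNA known from neurons and endocrine cells, had 6, 12 and 4. No source used here gives the strand setting of the counting, so the level of each of these names is uncertain. Among the 2281 names with a sequence, 117 pairs of names shared a run of at least 16 bases with the reverse complement of the other. Their 178 names held 1.32 ± 0.00748% of counts. Runs of at least 16 bases on the same strand joined 162 names, which held 4.19 ± 0.0407%. Names without a sequence, such as miR-10b-5p, could not enter. A pair such as let-7a-5p and let-7f-5p, alike at 21 of 22 positions, has no such run and is not counted. These shares therefore leave out some similar names. miR-365a-3p and miR-365b-3p, which have 1 sequence, had 15, 17 and 12 counts and 21, 18 and 20 counts.

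Genomic clusters were formed from hairpin genes on 1 strand with neighbours at most 10 kb apart. Of 1776 hairpin genes in the reference table, 339 fell into 94 clusters. Names made only by the genes of 1 cluster held 13.9 ± 0.330% of counts, and names made only by lone genes, at 1 locus or several, 56.7 ± 0.499%. Another 28 names, made by loci of over 1 cluster or by clustered and lone genes, held 11.1 ± 0.124%. Lone genes include miR-10a, so most counts in this profile did not come from clusters. In 39 clusters the names of their own held under 0.01% of counts.

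The first cluster was that of miR-191 and miR-425 on chromosome 3, with 2.53 ± 0.0151% of counts, of which miR-191-5p made up 99.8%. miR-425-5p was not matched and is not in this share. The second, on chromosome 19, joins miR-99b, let-7e and miR-125a and held 2.08 ± 0.0711%. There miR-99b-5p stood at 17034 ± 664 CPM, miR-125a-5p at 2737 ± 48.2 CPM and let-7e-5p at 922 ± 35.9 CPM. These 3 names of 1 cluster thus differed by more than their spread in every library.

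In 3 more clusters 1 name stood well above the rest. In the cluster of miR-183, miR-96 and miR-182 on chromosome 7, a set known from hair cells and photoreceptors, which held 1.91 ± 0.196%, miR-182-5p stood at 17832 ± 1903 CPM. miR-183-5p stood at 1022 ± 63.4 CPM and miR-96-5p at 131 ± 7.92 CPM. In the miR-106b/25 cluster within MCM7, a replication gene on the same chromosome, miR-25-3p stood at 9618 ± 202 CPM. miR-93-5p stood at 3241 ± 118 CPM and miR-106b-5p at 383 ± 16.5 CPM. In the cluster of miR-23b, miR-27b and miR-24-1 on chromosome 9, miR-27b-3p made up 99.2% of 1.05 ± 0.0158% of counts, and miR-23b-3p stood at 33.4 ± 4.38 CPM. The highest name of each of these 3 clusters was above the next one in every library.

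The miR-17/92 cluster on chromosome 13 held 0.799 ± 0.0279% of counts in names of its own, and 7.68% when miR-92a-3p and miR-19b-3p, which the X-linked copy also makes, were added. miR-20a-5p led its own names at 3686, 3770 and 3581 CPM. miR-17-5p followed at 2395, 2525 and 2309 CPM, miR-19a-3p at 984 ± 19.9 CPM and miR-18a-5p at 690 ± 82.7 CPM. The names that only the X-linked copy makes summed to 23.5 ± 1.31 CPM over 10 names, with miR-106a-5p highest at 8.73 CPM.

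The remaining clusters of the first 10 held under 0.6% each. The cluster of miR-192, miR-194-2, miR-6749 and miR-6750 on chromosome 11 held 0.563 ± 0.0291%, of which miR-192-5p made up 95.8%. The cluster of miR-221 and miR-222 on chromosome X held 0.504 ± 0.0221%. miR-221-3p stood there at 4746 ± 232 CPM against 142.8 ± 11.1 CPM for miR-222-3p, although both have been studied together as repressors of the cell cycle inhibitor CDKN1B. The miR-4745 and miR-3187 pair on chromosome 19 held 0.464 ± 0.0507% and the copies of miR-941 on chromosome 20 held 0.325 ± 0.00495%.

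Arm use was compared in the hairpin names that have both arms in the table. These were 858 hairpin names with 81.2 ± 0.539% of counts. 5p names held 60.7 ± 0.610% of all counts, 3p names 21.3 ± 0.121% and names without an arm label 18.0 ± 0.490%. miR-10a-5p and miR-10b-5p alone held 38.1 ± 0.838% of all counts, so most of the 5p share rests on these 2 names. Of 532 hairpin names with at least 30 counts, 449 (84.4%) had 1 arm above the other at a Benjamini-Hochberg adjusted p under 0.05 by edgeR's quasi-likelihood test with the library as a block. The 5p arm was the higher one in 246 (46.2%) and the 3p arm in the rest (38.2%). The other 83 hairpin names did not pass the test. The 2 arms of a hairpin came from the same libraries, so the test compares 2 sequences within the libraries. In some hairpins, such as miR-4633 and miR-625, 1 arm shares a run of at least 16 bases with the reverse complement of the other. The strand setting of the counting is not given, so the split between the arms of such hairpins is uncertain.

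Among the 65 hairpin names of at least 1000 CPM over both arms, the 5p arm was higher in 41 and the 3p arm in 24, so all 65 passed, against 84.4% of all tested. One arm held at least 90% of the counts in 47 of these 65. This held for 38 of the 43 with a number up to 1000 and for 9 of the 22 with a number over 1000. The median share of the higher arm was 99.6% in the first group and 88.4% in the second. These values depended on the level cut. Over all tested hairpin names, 38.5% had 1 arm with at least 90% of the counts. The median share of the higher arm was then 84.1%. By number, 1 arm held at least 90% in 51.8% of all tested up to 1000 and in 29.0% over 1000. At 100 CPM or more these were 71.6% and 43.5%. All these shares are descriptions of the names, and the difference between the groups was not tested.

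The hairpins most one-sided towards 5p were miR-192, miR-10b, miR-182, miR-20a and miR-10a. miR-192-5p, a kidney and gut miRNA, had 4227, 4000 and 4143 counts and miR-192-3p had 2, 0 and 0. miR-182-5p had 14911, 12017 and 13995 counts and its 3p arm 5, 6 and 3. miR-10a-3p was detected well above this, at 247, 272 and 261 CPM, and yet the 5p share of miR-10a was 99.9%. The 5p shares of miR-10b, miR-182 and miR-20a were also above 99%.

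The hairpins most one-sided towards 3p were miR-25, miR-92a, miR-22, miR-103a and miR-221. Their 5p shares were 0.0581 ± 0.0392%, 0.0745 ± 0.0181%, 0.105 ± 0.0397%, 0.125 ± 0.0649% and 0.205 ± 0.0998%. miR-92a-3p had 54025, 52650 and 47346 counts against 42, 29 and 43 for the 5p names of both its copies. miR-25-3p had 7963, 7277 and 6869 counts against 7, 1 and 5. Within the miR-17/92 cluster the higher arm therefore differed by hairpin, 5p for miR-17 and miR-20a and 3p for miR-92a and miR-19b.

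The 4 hairpin names of at least 1000 CPM with a 5p share from 30% to 70% used both arms. miR-6836 had 3717, 4179 and 4112 counts on 5p and 2560, 2408 and 2255 on 3p, a 5p share of 62.4 ± 2.83%. miR-151a had 2050, 1767 and 1927 counts on 5p and 1222, 1157 and 1205 on 3p, a share of 61.5 ± 1.11%. The 5p arm was the higher one in each library for both. miR-5587 had 455, 308 and 336 counts on 5p against 586, 521 and 582 on 3p, and miR-7108 had 361, 300 and 335 against 622, 666 and 577. The log2 ratio of 5p to 3p was 0.68 for miR-151a (adjusted p = 2.92e-12, edgeR) and 0.73 for miR-6836 (adjusted p = 9.49e-15, edgeR). It was -0.63 for miR-5587 (adjusted p = 1.86e-09, edgeR) and -0.91 for miR-7108 (adjusted p = 1.24e-17, edgeR). All 4 ratios were under 2-fold.

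**Figure D3:**
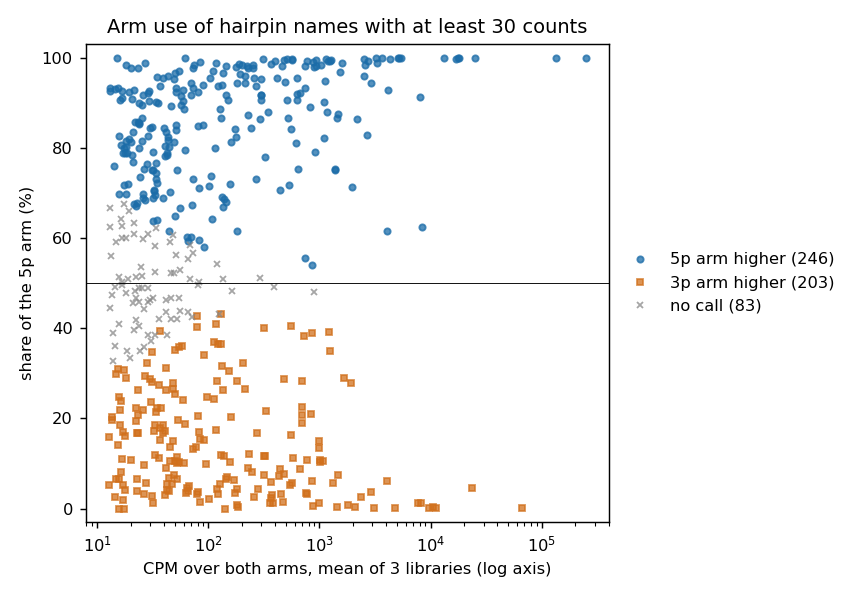
Share of the 5p arm (percent) against the CPM over both arms (mean of 3 libraries, log axis) for 532 hairpin names, by the call of the arm test. Above 1000 CPM most points lie near 0% or 100%, and miR-151a and miR-6836 are the 2 points at 61.5% and 62.4% towards the right.

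Argonaute 2 prefers a guide that starts with U or A. The first base of the 2 arms was read for hairpin names past the test with a sequence for both arms. Of U and A, only U is given here. Among those with a number up to 1000, U came first in 75 higher arms (54.3%) and in 39 lower arms (28.3%). Within this group the shares were 62.2% and 25.7% where 5p was the higher arm. Where 3p was the higher arm, they were 45.3% and 31.25%. In the 218 with a number over 1000, U came first in 39.9% of the higher and in 40.8% of the lower arms. These shares are over hairpin names, which are not replicates, and they carry no test.

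Base composition also differed between the names in the table and the reads. Among names with a sequence, which held 81.8 ± 0.523% of all counts, U came first in 36.7% of names and in 59.8 ± 0.566% of their counts. Without miR-10a-5p, U came first in 42.3 ± 0.317% of their counts. A G+C content of at least 70% was found in 10.0% of names with a sequence and in 20.3 ± 0.436% of their counts. miR-10b-5p, with 13.3% of all counts, was not matched and enters none of these shares. The 228 G+C-rich names had a median of 141.02 CPM, against 5.77 CPM for the 2053 others. Of the 79 names with a sequence of at least 1000 CPM, 33 were G+C-rich, and 29 of these carried a number over 1000.

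The leading G+C-rich names were miR-718 with 85.7% G+C, miR-6126 with 72.2% and miR-4634 with 94.7%. miR-6724-5p stood at 7179 ± 614 CPM with 91.3% G+C, miR-4466 at 5997 ± 174 CPM with 94.4% and miR-3181 at 5466 ± 180 CPM with 84.2%. miR-6836-5p stood at 5248 ± 573 CPM with 77.3% G+C. miR-663a, whose sequence is 90.9% G+C, stood at 4539 ± 356 CPM. Names with a number over 1000 made up 1648 of the 2588 names and held 22.3 ± 0.696% of counts, and the 940 with a number up to 1000 held 77.7 ± 0.696%.

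**Figure D4:**
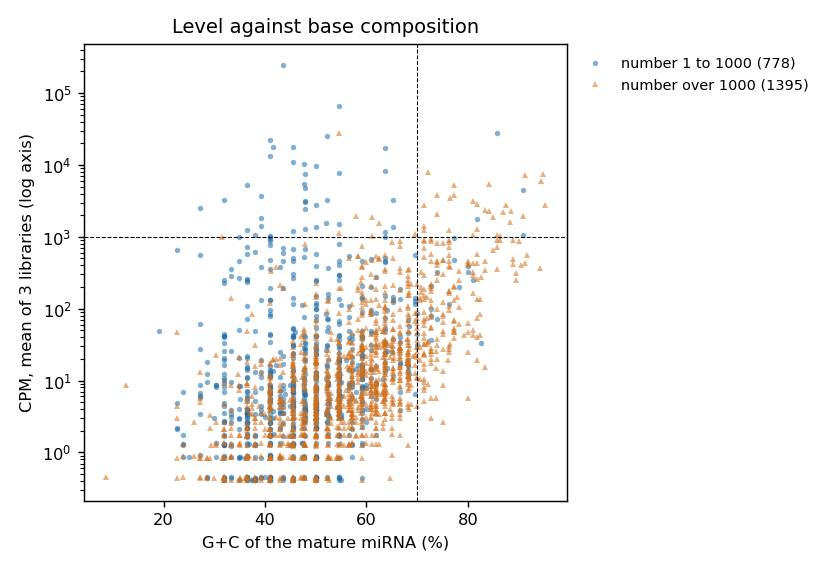
CPM (mean of 3 libraries, log axis) against the G+C content of the mature miRNA (percent) for names with a sequence and a count, split by the number in the name. Dashed lines mark 70% G+C and 1000 CPM: the 33 names in the upper right include 29 with a number over 1000.

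Lists of miRNAs known from particular tissues or pathways were summed to show which of them the profile holds. Of 14 lists, 9 had a name over 100 CPM, and over all names the median was 7.55 CPM with 374 of 2588 names over 100 CPM. The HOX cluster list was highest at 375635, 391137 and 389058 CPM (385277 ± 8414 CPM), with 7 of 10 names over 100 CPM. Beside the miR-10 names, miR-196b-5p stood at 1192 ± 13.7 CPM, miR-615-3p at 1178 ± 104 CPM and miR-196a-5p at 883 ± 32.7 CPM.

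The sensory list followed at 19819, 16930 and 20666 CPM, with miR-182-5p making up 93.2% of it. The adult kidney list summed to 5398, 5407 and 5930 CPM, of which miR-192-5p made up 96.7%. miR-194-5p stood at 116 ± 6.93 CPM, whereas miR-204-5p, abundant in kidney epithelium, stood at 6.47 ± 2.02 CPM. A list sum therefore rested on 1 name in both cases, and 5 of the 8 kidney names were under 10 CPM.

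Single names also carried other lists. In the blood list miR-486-5p stood at 2493, 2323 and 2729 CPM and made up 93.2%, while miR-451a, which defines red cells, was at 0 in each library. miR-223-3p, a marker of myeloid cells, had 0, 0 and 1 counts. In the endothelial list miR-126-5p stood at 622 ± 27.1 CPM against 53.5 ± 11.8 CPM for miR-126-3p. miR-375, known from pancreatic islets, stood at 285, 286 and 297 CPM. miR-34a-5p, a p53 target, stood at 245 ± 12.6 CPM and miR-210-3p, which responds to hypoxia, at 444 ± 20.7 CPM.

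The neuronal list had 5 of 16 names over 100 CPM and summed to 1552 ± 17.4 CPM. miR-128-3p stood at 528 ± 30.01 CPM, miR-9-5p at 455 ± 17.5 CPM and miR-132-3p at 121.7 ± 13.5 CPM. The names miR-128-2-5p and miR-128-1-5p stood at 202.9 ± 25.2 and 132.6 ± 11.5 CPM. miR-124-3p, one of the most abundant miRNAs of mature neurons, stood at 26.1 ± 4.76 CPM.

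The other lists had no name over 100 CPM. All 16 names of the pluripotency list (miR-302, miR-367 and miR-371 to miR-373) were under 10 CPM, and they summed to 35.9, 30.04 and 31.8 CPM. miR-302a-3p and miR-302b-5p were at 0 in each library. Liver miR-122-5p had 1, 0 and 0 counts. The muscle list summed to 136 ± 17.6 CPM, with miR-208a-5p highest at 54, 46 and 52 counts (66.3 ± 5.92 CPM) and miR-133a-3p at 11.4 ± 1.32 CPM, while miR-1-3p and miR-206 were at 0. The epithelial list of miR-200 family, miR-203a and miR-205 names summed to 77.2 ± 7.53 CPM, with miR-205-5p highest at 20.3 ± 5.71 CPM and miR-200c-3p at 16.8 ± 4.99 CPM. The fibroblast and smooth muscle list summed to 61.9 ± 2.33 CPM. Its highest name, miR-199b-5p, had 21, 13 and 16 counts (21.7 ± 4.51 CPM), miR-143-3p stood at 10.4 ± 3.15 CPM and miR-145-3p was at 0.

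**Figure D5:**
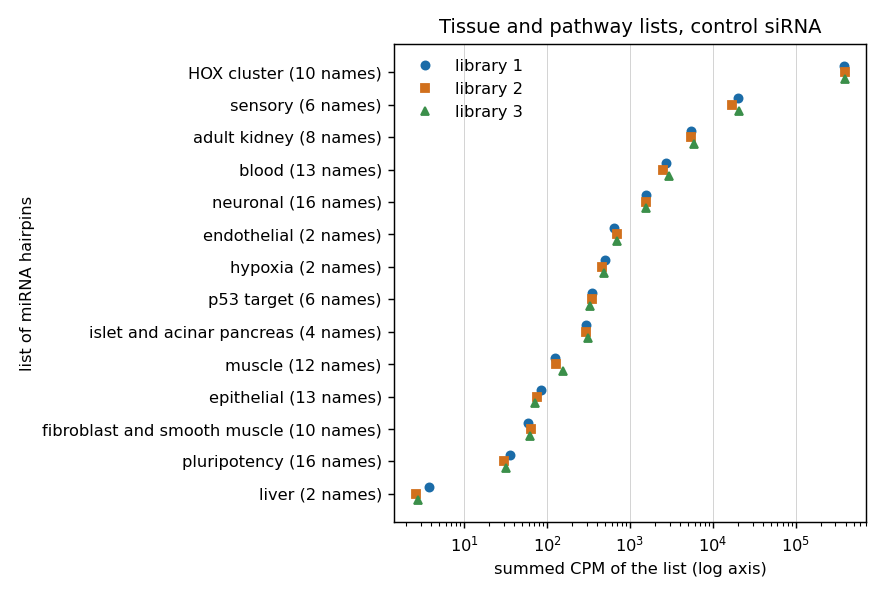
Summed CPM (log axis) of 14 lists of tissue or pathway miRNAs in the 3 libraries, with the number of names in brackets. The HOX cluster list lies near 385277 CPM and the liver list near 3.03 CPM.

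Most of the 2588 names had some counts. In each of the 3 libraries 1942 names (75.04%) had a count, 517 names had one in some of them, and 129 names (4.98%) were at 0 in all 3. A total of 403 names had 1 to 3 counts over all libraries. With at least 10 counts in each library 918 names remained. Over the 3 libraries together, a count of 0 allows up to 1.31 CPM. Of the 129 names at 0, 32 were 5p names, 45 were 3p names and 52 had no arm label. The share at 0 was 8.15% without library 1 and 7.92% without library 2.

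The names at 0 included members of primate-specific and repeat-derived families. Of 55 names from miR-515 to miR-527, most of them made by a primate-specific cluster expressed in placenta, 13 were at 0 and 54 were under 10 CPM. Some of the names at 0, such as miR-519a-5p and miR-519c-5p, have the same sequence as another name. How reads that match several names were counted is not given, so a count of 0 for such a name is uncertain. Of 80 miR-548 names, a family derived from transposons, 12 were at 0 and 68 were under 10 CPM, with miR-548k highest at 236 CPM. Of 10 miR-302 names, 4 were at 0, and of 7 miR-376 names, which belong to an imprinted cluster, 2 were at 0. For comparison, 129 (4.98%) of all 2588 names were at 0 and 1437 were under 10 CPM. None of the 18 let-7, 11 miR-30 and 10 miR-181 names was at 0 in all 3 libraries, while 7 let-7 and 2 miR-181 names were under 10 CPM. Groups this small can have no name at 0 at the share over all names. The names at 0 with a sequence had a median G+C content of 36.4%, against 52.2% for all names with a sequence.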

How the data were processed

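miRNA-seq counts of the 3 control siRNA libraries were used. The authors deposited raw read counts per mature miRNA name, whole numbers with a different total in each library. HTSeq 0.6.1p1, TopHat2 2.0.10, CASAVA 1.8.2 and hg19 are listed without roles, per the submitters' processing notes. For the miRNA reads, no source used here gives the aligner, the strand setting or the treatment of reads that match several names, and the labels' protocol names a kit for long RNA. Every column of these libraries matched 1 sample, and 0 columns were left without one.

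CPM is the count over the library total. Arms were compared by the robust quasi-likelihood test of edgeR 4.0.16 under R 4.3.3, 3p against 5p per hairpin name, with paralogs summed, library totals as size and the library as a block, because both arms were counted in the same library. Hairpin names needed 30 counts over both arms, and p-values were adjusted over all tested. The script was tested on simulated data. Sequences and gene order came from RefSeq (GRCh38.p14). Since the counts use hg19, no coordinates are given. Genes overlapping a hairpin were taken on either strand.

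The 3 libraries, the lists and the tests were chosen with earlier results of these data known. Named were the 20 highest names, the 10 highest families and clusters, the 5 hairpins of at least 1000 CPM with the highest and the lowest 5p share and those from 30% to 70%, the 5 most variable of the first 100 names, and list members over 100 CPM (at most 4) or at 0. Other names were chosen after their values were seen. Alternatives were other scalings, filters, seeds, distances, DESeq2 1.42.0 and leaving out each library.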

Additional observations from a re-analysis of the deposited data

How the results depend on the processing

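Leaving miR-10a-5p out of the total lowered the share of the first 10 names from 60.5% to 49.3% and that of the first 10 families from 51.7% to 37.3%. Among names with a sequence, which do not include miR-10b-5p, it moved the share of counts with U first from 59.8% to 42.3%. In the same names the share of G+C-rich names moved from 20.3% to 29.2%. The first 10 clusters held 11.6% with neighbours at most 10 kb apart and 9.59% at 3 kb, where miR-182 separates from miR-183 and miR-96. They held 14.1% at 50 kb, where miR-718 joins a cluster. The share was 28.2% when names shared with another cluster or a lone gene were added to each. A minimum of 10 counts in each library lowered the detected names from 1942 to 918. Without the library as a block, the paired arms gave 247 hairpins with 5p higher, against 246, and as many with 3p higher as with it. A minimum of 300 counts left 201 hairpins, with 110 and 86 calls, because fewer were tested. DESeq2 gave 220 and 185. No call changed direction under any of these arm tests or without any library. A 2-fold minimum removed the calls of miR-151a, miR-5587, miR-6836 and miR-7108. Without 1 library, the names at 0 numbered 190 to 211, against 129 with all 3. The median CV of the first 100 names was then 3.08% to 3.42%, against 4.03%. A median CV from fewer libraries tends to be smaller at the same spread, so this drop does not show that the libraries were more alike. Scaling by TMM or DESeq2 size factors moved the CPM of 1 of the 20 highest names (miR-191-5p, 25081 by DESeq2 size factors) by more than its SD. Depth limits what can be said of names under 10 CPM.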

Other observations

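Of the 374 names over 100 CPM, library 1 was the highest of the 3 for 163, library 2 for 120 and library 3 for 91. Over names with enough counts, the chi-square per degree of freedom between 2 libraries was 2.59 for libraries 1 and 2, 2.16 for 1 and 3, and 1.81 for 2 and 3, where sampling noise alone would give about 1.

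Other pairs of reverse complements had few counts. miR-374b-5p, a name from an X-linked locus, had 34, 34 and 27 counts and miR-374c-3p had 35, 34 and 33. miR-550a-3p had 32, 20 and 25 counts and miR-550b-2-5p had 20, 17 and 16. Both members of the first pair were close in libraries 1 and 2, and miR-550a-3p was the higher of its pair in each library.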
